A study of Saccharomyces cerevisiae with 28 samples.

Results

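The comparison described here is that of RM diploid cells with RM haploid cells of the budding yeast Saccharomyces cerevisiae, on 6 of the 28 arrays of the series. Its members were chosen by their titles alone: 3 arrays titled RM diploid and 3 titled RM haploid, read over all 9274 probe sets that are not controls and not at 0 on every array. RM is labelled a wild vineyard strain, and the RM diploid is labelled as a diploid made by crossing RM. The same step was also sampled in BY, a strain isogenic to the laboratory strain S288C, as 3 BY diploid and 3 BY haploid arrays, which share no array with the RM groups. All 12 arrays hold total RNA of log phase cells, and no treatment, genotype, mating type or auxotrophic marker is given in the labels. Ploidy, mating type and any marker or culture difference between diploid and haploid cells can therefore not be told apart. The values are log2 levels per probe set, and differences are diploid minus haploid on that scale. Nothing states that the 3 arrays of a group came from separate cultures, so each p-value reflects the spread among arrays alone, part or all of which may be technical.

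Budding yeast lives as a haploid of mating type a or alpha, or as an a/alpha diploid made when the haploid types mate. An a cell transcribes the a-specific genes, which an alpha cell shuts off through the alpha2 repressor, and an alpha cell transcribes the alpha-specific genes through the activator alpha1. An a/alpha diploid makes both alpha2 and the a1 protein, whose joint repressor also shuts off the haploid-specific genes of pheromone signalling. Daughter cells part from their mothers after division, when chitinases and glucanases made by the daughter digest the septum between them. Most genes of amino acid synthesis are under general control by Gcn4, and several pathways have a regulator of their own, such as Leu3 for leucine and Ppr1 for pyrimidines.

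At a Benjamini-Hochberg adjusted p of 0.05 in a limma fit, 764 of the 9274 probe sets (8.24%) differed between RM diploids and RM haploids, 344 of them higher (3.71%) and 420 lower (4.53%). Taken as 1 probe set per gene, 432 of 5656 genes (7.64%) differed, 278 of them higher (4.92%) and 154 lower (2.72%). A change of more than 2-fold was called for 58 genes that were higher and 56 that were lower. In 29.7% of all genes the RM diploid arrays did not overlap the RM haploid arrays, so a lack of overlap is common here. The median difference over all genes was 0.05 in RM and 0.13 in BY. In BY, 589 probe sets (6.35%) differed, 373 of them lower (4.02%), and 198 genes (3.5%), 138 higher (2.44%) and 60 lower (1.06%), and 69 genes were called in both strains in the same direction and 4 in opposite directions. The ploidy difference itself differed between RM and BY for 181 probe sets (1.95%), 75 of them with the smaller value in RM (0.809%), and for 103 genes (1.82%), 43 with the larger value in RM (0.76%) and 60 with the smaller one (1.06%). Of the 432 genes called in RM, 75 were among them. RM diploid 1 and RM haploid 2 were the arrays least like the others of their groups, with mean correlations over all probe sets of 0.974 and 0.972. Without both, 410 probe sets were called, 141 higher and 269 lower, and without RM haploid 2 alone 543 were called, 182 higher and 361 lower. ACT1, the actin gene, was at 13.35, 13.46 and 13.42 in RM diploids, against 13.34, 13.68 and 13.42 in RM haploids.

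The 3 largest falls by gene were those of a-specific genes. Of 7 such genes 6 fell in RM diploids and none rose, with a median difference of −3.18 for the list against 0.05 for all genes. MFA2, which encodes a precursor of the a-factor pheromone, was at 7.76, 7.49 and 7.21 in RM diploids, against 12.62, 12.39 and 12.75 in RM haploids. The groups did not overlap, and the measured levels differed 34.3-fold (difference −5.10 ± 0.19 SE, adjusted p = 2.35e-15). STE2, the receptor by which a cells sense alpha-factor, was at 6.38, 6.67 and 6.54 in RM diploids, against 10.76, 11.08 and 10.94 in RM haploids, a difference of −4.40 ± 0.12 (SE). BAR1, the secreted protease that degrades alpha-factor, was at 5.65, 5.73 and 5.70 in RM diploids, against 9.59, 9.64 and 9.72 in RM haploids, a difference of −3.96 ± 0.11 (SE). Every diploid array of these 3 genes lay more than 3 log2 units below every haploid array. AGA2, the binding subunit of a-agglutinin, differed by −3.18, and STE6, the exporter of a-factor, by −2.93. MFA1, the other a-factor gene, differed by −2.29 on the probe set used. It differed by −4.02 on its second probe set, which is of a kind that can share sequence with relatives. The probe set used for MFA1 averaged 9.64 in BY diploids and 9.60 in BY haploids, against 5.34 and 5.22 on the second. The reason for this gap was not tested. ASG7, which dampens pheromone signalling in the new zygote, did not pass the test, at 7.33, 6.84 and 6.84 in RM diploids, against 7.59, 7.42 and 7.34 in RM haploids (adjusted p = 0.0646), although it did without RM diploid 1 (adjusted p = 0.0119). Summed on the linear scale, the 7 a-specific genes reached 1140 to 1440 in RM diploids, against 12931 to 14357 in RM haploids. No detection calls were used, so whether the low levels stood above background is not known, and each fold here is one between measured levels. MFA2 averaged 7.02 in BY diploids and 6.92 in BY haploids. In RNA of whole cultures, fewer cells that transcribe a gene and less RNA per cell cannot be told apart.

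The alpha-specific genes were low in both RM groups. Their summed linear level was 717 to 906 in RM diploids, against 855 to 1178 in RM haploids, and 1 of 5 was called. MF(ALPHA)1, the main alpha-factor gene, was at 7.98, 7.79 and 7.47 in RM diploids, against 7.92, 8.67 and 7.74 in RM haploids, and STE3, the a-factor receptor, was at 7.75, 7.54 and 7.43 in RM diploids, against 7.88, 7.99 and 7.46 in RM haploids. The groups overlapped for both. AFB1, which encodes the a-factor barrier, was the called member, at 6.53, 5.91 and 5.90 in RM diploids, against 7.74, 7.52 and 7.80 in RM haploids (difference −1.57 ± 0.16 SE, adjusted p = 2.53e-07). SAG1, the alpha-agglutinin, differed by 0.44 and did not pass (adjusted p = 0.0897). By these markers, fixed for the check of the labels, the RM haploids carried the a-specific pattern and the RM diploids neither haploid pattern.

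In BY the other set moved: 5 of 5 alpha-specific genes fell in BY diploids, and 0 of 7 a-specific genes were called in the limma fit (1 at an unadjusted p of 0.05). The ploidy difference of RM minus that of BY was called for 7 of 7 a-specific genes, all negative, and for 5 of 5 alpha-specific genes, all positive. It was −5.20 ± 0.26 (SE) for MFA2, 5.11 ± 0.22 (SE) for SAG1 and 3.08 ± 0.22 (SE) for AFB1, which fell in both strains, with differences of −1.57 in RM and −4.65 in BY.

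Of 13 haploid-specific genes 10 fell in RM diploids and none rose, with a median of −1.29, and 12 of the 13 fell in BY diploids. FAR1, which arrests the cell cycle in response to pheromone, was at 6.61, 6.11 and 6.05 in RM diploids, against 9.86, 9.52 and 9.73 in RM haploids, a 10.9-fold fall (difference −3.45 ± 0.15 SE, adjusted p = 9.36e-14). RME1, a repressor of meiosis, was at 6.89, 6.89 and 6.66 in RM diploids, against 9.25, 9.30 and 9.59 in RM haploids, a difference of −2.57 ± 0.24 (SE). STE4, the beta subunit of the pheromone G protein, was at 7.64, 7.69 and 7.66 in RM diploids, against 9.84, 9.75 and 9.88 in RM haploids. All 3 subunits of that G protein fell, with differences of −2.16 for STE4, −1.98 for the alpha subunit GPA1 and −1.84 for the gamma subunit STE18. Downstream of them, the difference was −1.29 for the scaffold STE5 and −1.03 for the transcription factor STE12. It was −1.74 for RDH54, which encodes a recombination helicase, and −0.84 for AXL1, the protease that matures a-factor and takes part in axial budding. The remaining call was that of AMN1, described below with daughter cell separation. For FAR1, RME1, STE4, GPA1, STE18, STE5, STE12, RDH54 and AXL1 the test of the RM difference against the BY difference did not pass, with adjusted p from 0.193 to 0.997.

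The 3 members without a call were HO, NEJ1 and FUS3. HO, the endonuclease of mating-type switching, was at 7.06, 6.82 and 6.83 in RM diploids, against 6.99, 7.39 and 6.86 in RM haploids, which overlapped. In BY diploids HO fell by 2.04, and the difference between the strains was 1.86 ± 0.24 (SE, adjusted p = 1.92e-05). NEJ1, a regulator of end joining, was at 6.13, 5.51 and 5.81 in RM diploids, against 6.45, 5.98 and 6.30 in RM haploids (adjusted p = 0.153), but was called without RM diploid 1 and RM haploid 2 (adjusted p = 0.0313). FUS3, the mating kinase, was at 7.23, 6.82 and 6.71 in RM diploids, against 8.33, 7.82 and 8.27 in RM haploids on the probe set used (adjusted p = 0.15). Of its other probe sets, one differed by −2.59 (adjusted p = 1.97e-08) and one by 0.17 (adjusted p = 0.743), so the gene's probe sets disagree. The last of them averaged 5.85 in RM diploids and 5.68 in RM haploids, near the 10th percentile of values on the fitted arrays (5.72). The probe set used gained a call in 2 of 24 alternative settings, one being the 6 RM arrays fitted alone (adjusted p = 0.00844).

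**Figure D1:**
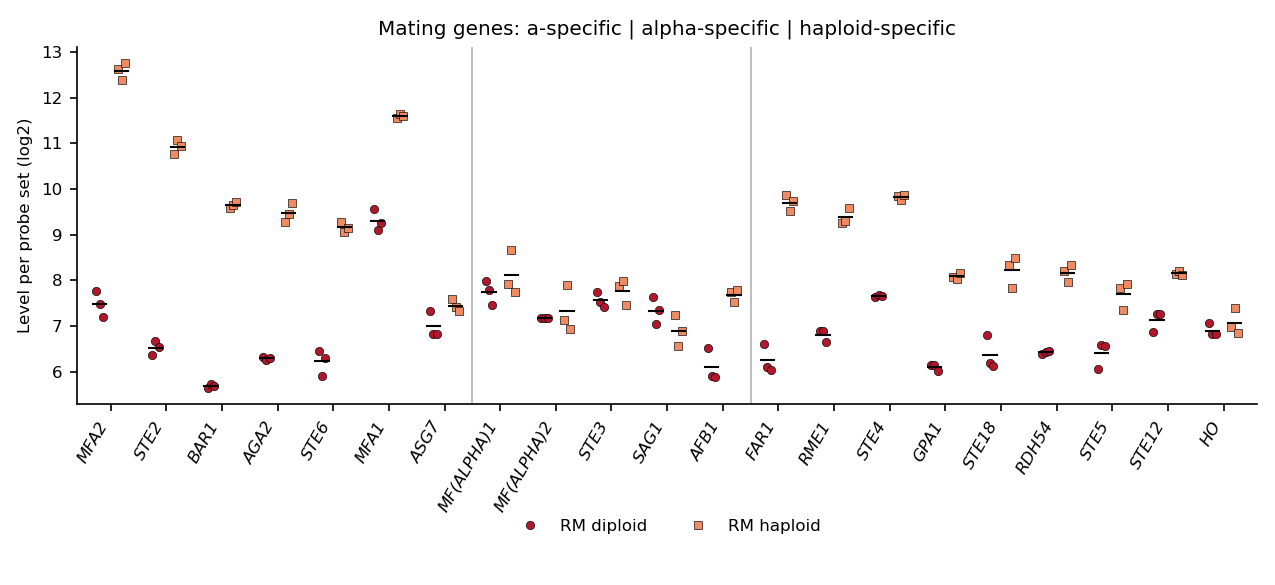
Log2 level of each RM diploid array (circles) and each RM haploid array (squares) for the a-specific, alpha-specific and selected haploid-specific genes, with group means as bars. The arrays do not overlap for MFA2, STE2, BAR1, FAR1 and STE4, and overlap for MF(ALPHA)1, STE3 and HO.

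Outside the repressed set, the differences of the listed pheromone genes lay between −0.96 and 0.47. Among 26 pheromone-induced genes 3 fell and 1 rose, with a median of −0.18, where 2.72% of all genes fell and 4.92% rose. Of the 26, 13 had an unadjusted limma p under 0.05, against 1152 of 5656 over all genes. The falls were those of SST2, which shuts off the G protein (difference −0.90), GIC2, an effector of Cdc42 (−0.79), and AGA1, the anchor subunit of a-agglutinin (−0.51). The rise was that of MID2, a cell wall sensor (0.47). With the 6 RM arrays fitted alone, GIC2 was the 1 called gene of the 26. AGA1 fell by 2.51 in BY diploids, and the difference between the strains was 2.0 ± 0.19 (SE, adjusted p = 2.14e-07). Among 14 signalling kinases and regulators outside the repressed set 2 fell, SST2 again and DIG1, a repressor of Ste12 (difference −0.96). SST2 (adjusted p = 0.0481) lost its call in 12 of 24 alternative settings. TEC1, the partner of Ste12 in filamentous growth, was at 7.67, 7.62 and 7.48 in RM diploids, against 10.43, 9.20 and 10.28 in RM haploids (difference −2.38 ± 0.22 SE, adjusted p = 5.19e-08), and fell by 1.99 in BY diploids. NFG1, a regulator of filamentous growth, was at 7.0, 6.58 and 6.58 in RM diploids, against 9.12, 8.95 and 9.16 in RM haploids, and its RM difference minus its BY difference was −0.92 ± 0.19 (SE, adjusted p = 0.00657).

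Meiotic genes did not rise as a group. Of 27 genes of meiosis and early sporulation 1 rose and none fell, with a median of −0.06. Over all genes 4.92% rose and 2.72% fell, so these counts do not set the list apart. IME1, the master activator of meiosis, was at 8.02, 7.31 and 7.39 in RM diploids, against 7.75, 7.78 and 7.16 in RM haploids, and IME2, the meiotic kinase, was at 7.69, 7.14 and 7.33 in RM diploids, against 7.22, 7.03 and 7.01 in RM haploids. The groups overlapped for both. IME4, an RNA methyltransferase of meiosis, was at 6.92, 7.07 and 6.97 in RM diploids, against 5.90, 6.62 and 5.90 in RM haploids (difference 0.85 ± 0.20 SE, adjusted p = 0.00716). An antisense transcript overlaps IME4, so its direction on an array is uncertain.

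Genes of daughter cell separation rose together in RM diploids. Of 11 such genes 8 rose and 1 fell, with a median of 1.53, against 2 that rose and 1 that fell in BY diploids, with a median of 0.20. CTS1, the chitinase that digests the septum, was at 11.35, 11.47 and 11.52 in RM diploids, against 8.89, 8.71 and 9.05 in RM haploids, a 5.91-fold rise (difference 2.56 ± 0.14 SE, adjusted p = 9.24e-12). DSE2, a secreted protein of daughter cells with glucanase features, was at 10.63, 10.85 and 10.78 in RM diploids, against 7.81, 8.32 and 7.98 in RM haploids, a 6.57-fold rise (difference 2.72 ± 0.13 SE, adjusted p = 1.47e-13). SCW11, a cell wall glucanase, was at 8.29, 8.57 and 8.77 in RM diploids, against 6.53, 6.78 and 6.59 in RM haploids. The RM diploid arrays lay above every RM haploid array for all 8 rising genes. These were picked by their calls on the same arrays, and 29.7% of all genes did not overlap, so this adds little. The glucanase DSE4 rose by 1.65, the daughter protein DSE1 by 1.53, the glucosidase-like SUN4 by 0.75 and the septum protein EGT2 by 0.41, and PRY3, a cell wall protein of the CAP family, rose by 1.99 in RM diploids and by 1.33 in BY diploids. EGT2 lost its call in 8 of 24 alternative settings.

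For CTS1 and DSE2 the RM haploids lay lowest of the 4 groups, with no array of another group among them. CTS1 averaged 11.45 ± 0.09 in RM diploids and 8.88 ± 0.17 in RM haploids, and 12.47 ± 0.06 in BY diploids and 12.46 ± 0.14 in BY haploids (SD, n = 3 arrays each). DSE2 averaged 10.75 ± 0.11 in RM diploids and 8.04 ± 0.26 in RM haploids, and 11.75 ± 0.08 in BY diploids and 11.36 ± 0.18 in BY haploids (SD, n = 3 arrays each). The RM difference exceeded the BY difference for 6 of the 11 genes, by 2.56 for CTS1, 2.33 for DSE2, 1.70 for SCW11, 1.60 for DSE1, 1.03 for DSE4 and 0.96 for SUN4. With the 4 segregant and segregant hybrid arrays added to the fit, CTS1 alone of the 6 kept this call, and adjusted p for the other 5 was 0.0772 to 0.299. The RM rise itself was then lost for SUN4 (adjusted p = 0.094) as well as EGT2. AMN1, which antagonises the exit from mitosis in daughter cells, was the gene that fell, at 8.5, 8.45 and 8.53 in RM diploids, against 9.09, 8.76 and 9.27 in RM haploids (difference −0.55 ± 0.11 SE, adjusted p = 0.00237), and it fell by 0.86 in BY diploids. Its call was lost with the 4 added arrays (adjusted p = 0.0553) and with the 6 RM arrays fitted alone (adjusted p = 0.0863). AMN1 is also counted among the falls of the haploid-specific list above. ASH1, a repressor that gathers in daughter nuclei, and DSE3 were not called, with differences of 0.18 and 0.31.

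**Figure D2:**
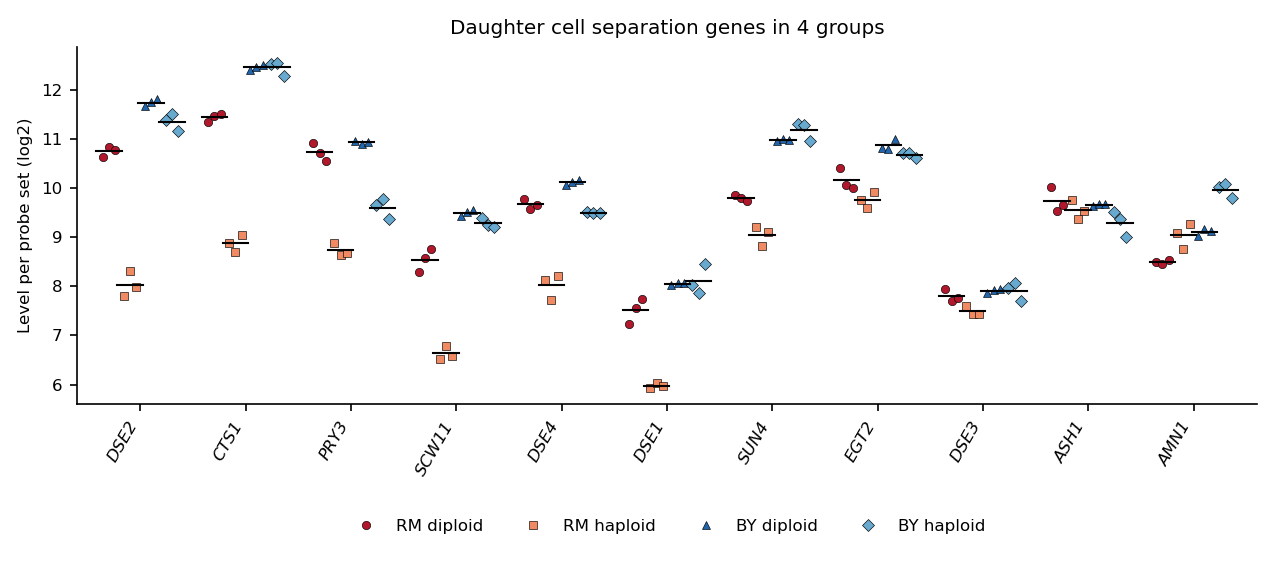
Log2 level of each array for 11 genes of daughter cell separation in RM diploids, RM haploids, BY diploids and BY haploids, with group means as bars. For CTS1 and DSE2 the RM haploids lie below the other 3 groups.

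Few genes of the G1 and mitotic lists were called, where 2.72% of all genes fell and 4.92% rose. In lists this short the lack of a rise is not a result about them. Of 19 G1 cyclin and G1/S genes 1 fell, the G1 cyclin CLN2, at 8.34, 8.32 and 8.37 in RM diploids, against 8.81, 8.82 and 9.08 in RM haploids (difference −0.56 ± 0.14 SE, adjusted p = 0.00797), which was not called without RM haploid 3 (adjusted p = 0.0501). CLN1, the related cyclin, differed by 0.15 and did not pass. Of 13 genes of the mitotic CLB2 cluster 2 fell, with differences of −0.73 for SWI5, a transcription factor of the end of mitosis, and −0.39 for BUD8, a marker of the distal bud pole. Among 14 genes of bud site choice and polarity 4 fell and 1 rose, with a median of −0.24. In this list 12 differences were below 0, against 2419 of 5656 over all genes. The falls were those of AXL2, the axial landmark (difference −0.98, and −1.16 and −0.84 on its other 2 probe sets), of the axial protein BUD3 (−0.65), and of AXL1 and BUD8 as above. BUD9, a marker of the proximal pole used by diploids, rose by 0.56. BUD3, BUD8 and BUD9 were not called with the 6 RM arrays fitted alone (adjusted p = 0.0629, 0.178 and 0.0573). BUD8 lost its call in 12 of 24 alternative settings.

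The largest rise of all named genes was that of HPF1, a cell wall mannoprotein. It was at 13.39, 13.30 and 13.26 in RM diploids, against 9.56, 9.53 and 9.19 in RM haploids, a 14.8-fold rise (difference 3.89 ± 0.13 SE, adjusted p = 8.23e-16). It rose by 3.72 in BY diploids as well, and the difference between the strains did not pass (0.17 ± 0.19 SE, adjusted p = 0.894). Of 25 mannoprotein genes 3 rose and 1 fell, with a median of −0.06, where 4.92% of all genes rose and 2.72% fell. The other rises were CCW14 by 0.78 and HSP150 by 0.58, both lost without RM diploid 1 and RM haploid 2 (adjusted p = 0.087 and 0.104).

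Arginine synthesis was the pathway in which every measured member rose. All 8 of 8 genes were higher in RM diploids, with a median of 1.80, and 0 of 8 were called in BY diploids in the limma fit (1 at an unadjusted p of 0.05), with a median of 0.26. ARG3, ornithine carbamoyltransferase, was at 11.38, 11.05 and 11.20 in RM diploids, against 7.99, 7.91 and 8.0 in RM haploids, a 9.47-fold rise (difference 3.24 ± 0.30 SE, adjusted p = 8.21e-08). CPA1, the small subunit of carbamoyl phosphate synthetase, was at 12.65, 12.34 and 12.28 in RM diploids, against 10.07, 9.99 and 10.19 in RM haploids, a difference of 2.34 ± 0.26 (SE). YOR302W, the short upstream reading frame on the CPA1 message, has a probe set of its own, which was at 12.94, 12.43 and 12.37 in RM diploids, against 9.83, 9.96 and 10.08 in RM haploids. Every RM diploid array lay above every RM haploid array in all 8 genes, where 29.7% of all genes did not overlap in either direction.

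The other members of the pathway rose less. ARG8, acetylornithine aminotransferase, rose by 2.21, ORT1, the mitochondrial exporter of ornithine, by 1.96, and ARG1, argininosuccinate synthetase, by 1.64. ARG4, argininosuccinate lyase, rose by 1.23, ARG7, which makes ornithine, by 1.14, and ARG2, acetylglutamate synthase, by 0.95. The difference between RM and BY was called for ARG3 (2.93 ± 0.43 SE), CPA1 (2.09 ± 0.37 SE), ARG8 (2.03 ± 0.43 SE) and ORT1 (1.83 ± 0.33 SE). For ARG8 this was lost without RM diploid 1 and RM haploid 2 (adjusted p = 0.0673). Without these arrays 6 of the 8 genes still rose in RM diploids, and ARG2 and ARG7 did not pass (adjusted p = 0.0698 and 0.267). Among 5 genes of arginine breakdown 1 fell and none rose. CAR2, ornithine aminotransferase, was at 9.58, 9.31 and 9.15 in RM diploids, against 10.76, 10.30 and 10.74 in RM haploids (difference −1.25 ± 0.17 SE, adjusted p = 2.27e-05), and its RM difference minus its BY difference was −1.18 ± 0.24 (SE, adjusted p = 0.00696).

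Other amino acid pathways rose in part, and in none of these lists did a gene fall, where 4.92% of all genes rose and 2.72% fell. For histidine 5 of 7 genes rose, with a median of 0.74, for the aromatic amino acids 7 of 13, with a median of 0.51, and for lysine 4 of 9, with a median of 0.50. For glutamate, glutamine, proline, asparagine and aspartate 3 of 10 rose, and for sulfur assimilation and methionine 6 of 25. HIS4, which catalyses several steps of histidine synthesis, was at 11.95, 11.45 and 11.60 in RM diploids, against 9.95, 9.68 and 10.04 in RM haploids (difference 1.78 ± 0.34 SE, adjusted p = 0.00109). LYS20, a homocitrate synthase, was at 11.02, 10.56 and 10.52 in RM diploids, against 9.38, 8.82 and 9.43 in RM haploids (difference 1.49 ± 0.23 SE, adjusted p = 8.82e-05). ODC2, a mitochondrial carrier of oxoadipate and oxoglutarate, rose by 1.87. HIS7 rose by 1.22, HIS3 by 0.97, HIS5 by 0.74, TRP4 by 0.89, ARO3 by 0.83, LYS21 by 1.01, LYS2 by 1.06 and LYS1 by 0.96.

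These counts leaned on the arrays least like their groups. Without RM haploid 2 the count fell to 3 of 13 for the aromatic amino acids and 2 of 9 for lysine, and without RM diploid 1 as well it was 2 of 13 and 2 of 9, with 3 of 7 for histidine and 2 of 25 for sulfur. ASN1, asparagine synthetase, was at 11.66, 11.52 and 11.66 in RM diploids, against 10.54, 10.65 and 10.62 in RM haploids (difference 1.01 ± 0.13 SE, adjusted p = 6.93e-06). STR3 and STR2, which exchange sulfur between homocysteine and cysteine, rose by 1.55 and 1.22, and the RM difference exceeded the BY difference for STR3 by 1.88 ± 0.38 (SE, adjusted p = 0.00627), for STR2 by 1.02 ± 0.25 (SE, adjusted p = 0.035) and for ASN1 by 0.77 ± 0.18 (SE, adjusted p = 0.0215). For the histidine, aromatic and lysine lists 0 genes had a called difference between the strains in the limma fit. LYS20 gained this call in 5 of 24 alternative settings, among them the replicate block (adjusted p = 0.0491), and with the 12 RM and BY arrays fitted alone HIS4, HIS7, LYS1 and TRP4 gained it as well (adjusted p = 0.00161, 0.017, 0.0296 and 0.0499).

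Leucine synthesis did not follow this pattern. LEU2, isopropylmalate dehydrogenase and a common selection marker of laboratory strains, lay between 9.96 and 10.03 on all 3 arrays of RM diploids, against 7.74, 8.33 and 7.49 on those of RM haploids, a 4.42-fold rise (difference 2.14 ± 0.16 SE, adjusted p = 2.69e-09), and its other 2 probe sets rose by 1.87 and 3.06. LEU1, isopropylmalate isomerase, moved the other way, at 10.86, 10.82 and 10.82 in RM diploids, against 12.64, 13.10 and 12.77 in RM haploids (difference −2.0 ± 0.14 SE, adjusted p = 8.25e-10). OAC1, the mitochondrial carrier that exports the leucine precursor isopropylmalate, was at 10.01, 9.97 and 9.92 in RM diploids, against 11.88, 11.82 and 11.71 in RM haploids (difference −1.84 ± 0.15 SE, adjusted p = 9.26e-09). BAT1, the mitochondrial branched-chain aminotransferase, fell by 0.93. These 4 genes were the 4 called of 13 in the list. The groups overlapped in none of the 4, where 29.7% of all genes did not overlap. The difference between RM and BY was 2.53 for LEU2, −2.32 for LEU1, −2.32 for OAC1 and −1.22 for BAT1, all called, and 0 of the 13 genes were called in BY diploids in the limma fit (6 at an unadjusted p of 0.05).

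Pyrimidine synthesis showed a like split. URA3, orotidine phosphate decarboxylase and another common selection marker, was at 8.39, 8.63 and 8.61 in RM diploids, against 6.24, 6.61 and 6.27 in RM haploids, a 4.5-fold rise (difference 2.17 ± 0.17 SE, adjusted p = 4.76e-09). In BY diploids it fell by 0.66 (adjusted p = 0.015), and the strains differed by 2.83 ± 0.24 (SE). URA1, dihydroorotate dehydrogenase, was at 10.10, 10.26 and 10.46 in RM diploids, against 12.42, 12.17 and 12.02 in RM haploids (difference −1.93 ± 0.33 SE, adjusted p = 0.000307). URA4, dihydroorotase, was at 9.52, 9.67 and 9.63 in RM diploids, against 11.10, 10.58 and 10.71 in RM haploids (difference −1.19 ± 0.19 SE, adjusted p = 0.0002). Of 14 genes of the pathway these 3 were called. The difference between RM and BY was −2.31 for URA1 and −1.21 for URA4, both called. Among other genes used as markers, TRP1, ADE2 and MET17 differed by 0.03, 0.52 and 0.59 without passing, and HIS3 and LYS2 rose as given above. LYS2 rose in BY diploids too, by 1.26, with no called difference between the strains (−0.21 ± 0.36 SE, adjusted p = 0.949). Of 16 purine synthesis genes 0 were called in the limma fit and 3 had an unadjusted p under 0.05.

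**Figure D3:**
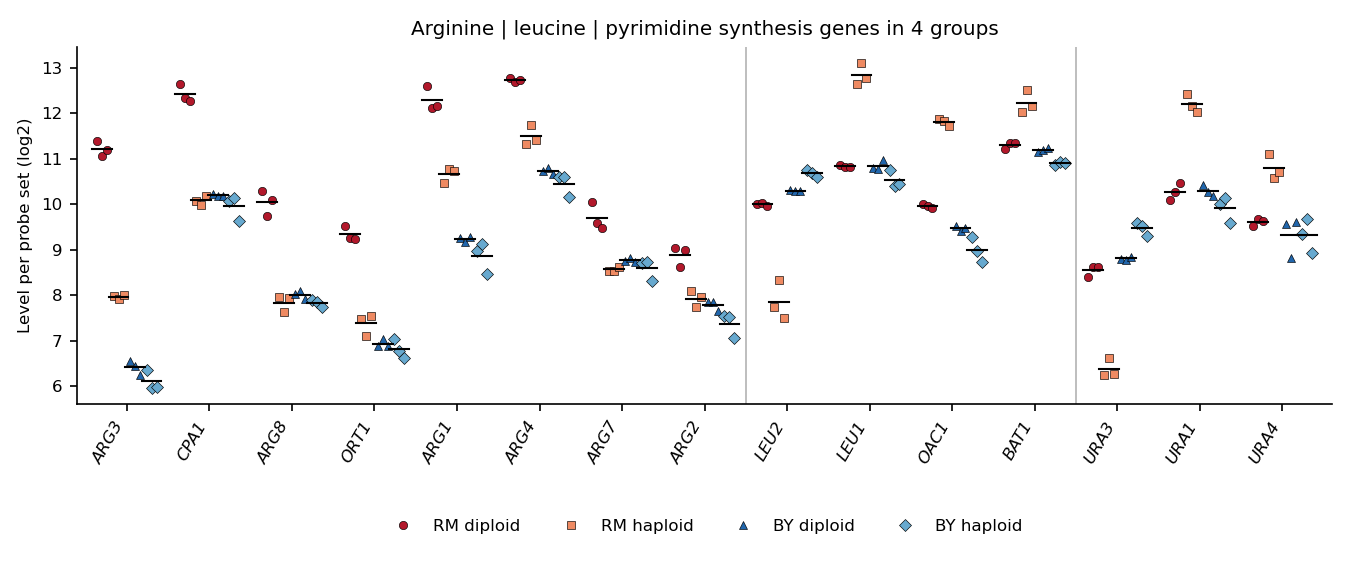
Log2 level of each array for genes of arginine, leucine and pyrimidine synthesis in RM diploids, RM haploids, BY diploids and BY haploids, with group means as bars. The 8 arginine genes are higher in RM diploids than in RM haploids, while LEU2 and URA3 are higher and LEU1, OAC1, BAT1, URA1 and URA4 lower.

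Some genes for the use of poor nitrogen sources were among the falls. Of 27 permease and nitrogen catabolite genes 4 fell, 2 rose and 21 were not called. Over all genes 2.72% fell and 4.92% rose. PUT4, the proline permease, was at 7.97, 8.11 and 7.76 in RM diploids, against 9.75, 9.22 and 10.35 in RM haploids (difference −1.83 ± 0.35 SE, adjusted p = 0.00098). MEP2, an ammonium permease, was at 6.38, 6.65 and 6.5 in RM diploids, against 7.89, 7.73 and 8.34 in RM haploids (difference −1.48 ± 0.16 SE, adjusted p = 9.05e-07). GAP1, the general amino acid permease, fell by 1.18. The RM difference minus the BY difference was −1.46 ± 0.23 for MEP2 (SE, adjusted p = 0.000312) and −1.94 ± 0.49 for PUT4 (SE, adjusted p = 0.0401), and for GAP1 the difference between the strains did not pass (adjusted p = 0.162).

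Of 35 general stress genes 4 fell and none rose, where 2.72% of all genes fell and 4.92% rose. The median of the list was −0.31, and 27 of the 35 differences were below 0, against 2419 of 5656 over all genes. DDR2, a small stress protein, was at 11.05, 10.55 and 10.41 in RM diploids, against 12.76, 12.59 and 13.26 in RM haploids (difference −2.20 ± 0.47 SE, adjusted p = 0.00302). The difference was −1.93 for GRE1, a hydrophilin, −1.52 for TKL2, a transketolase, and −1.01 for DDR48. TKL2 lost its call in 8 of 24 alternative settings. DDR2 and DDR48 also fell in BY diploids, with differences of −1.77 and −0.95. Glycogen synthases went the other way, GSY1 rising by 1.01 and GSY2 by 1.29 (adjusted p = 0.0253 and 0.0338), and both were lost without RM diploid 1 and RM haploid 2 (adjusted p = 0.241 and 0.273).

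In central metabolism the malate dehydrogenases split. MDH2, the cytosolic enzyme of the glyoxylate route and gluconeogenesis, was at 8.74, 8.32 and 8.27 in RM diploids, against 10.42, 10.45 and 10.63 in RM haploids (difference −2.06 ± 0.19 SE, adjusted p = 4.42e-08). Its BY difference was 0.00 on these decimals. MDH1, the mitochondrial enzyme, was at 11.55, 11.35 and 11.41 in RM diploids, against 9.68, 10.08 and 10.96 in RM haploids (difference 1.20 ± 0.22 SE, adjusted p = 0.000815), with RM haploid 3 nearest to the diploids. ADH5, an alcohol dehydrogenase, was at 10.62, 10.66 and 10.57 in RM diploids, against 8.58, 7.54 and 8.91 in RM haploids (difference 2.27 ± 0.35 SE, adjusted p = 9.39e-05). The difference between RM and BY was −2.06 ± 0.26 (SE) for MDH2 and 2.08 ± 0.49 (SE) for ADH5, both called. SUC2, invertase, rose by 1.35 on a probe set that can share sequence with relatives, by 1.19 on another, and differed by −0.10 on the last. ATG41, a small autophagy protein, was at 11.28, 11.14 and 11.16 in RM diploids, against 8.98, 9.20 and 9.21 in RM haploids (difference 2.06 ± 0.28 SE, adjusted p = 2.22e-05). QDR2, a multidrug transporter, was at 6.42, 6.62 and 6.52 in RM diploids, against 7.86, 8.33 and 8.36 in RM haploids (difference −1.66 ± 0.14 SE), but was not called with the 4 segregant and segregant hybrid arrays in the fit (adjusted p = 0.141).

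Iron-sulfur scaffold genes also split. ISU2 was at 7.95, 7.65 and 7.77 in RM diploids, against 9.68, 9.25 and 9.63 in RM haploids (difference −1.73 ± 0.16 SE, adjusted p = 9.91e-08), and the RM difference minus the BY difference was −1.58 ± 0.23 (SE, adjusted p = 0.000127). ISU1, its paralog, rose by 0.64 (adjusted p = 0.0156), and not without RM haploid 2 (adjusted p = 0.105). Of 29 genes of the iron regulon 2 fell and 1 rose, where 2.72% of all genes fell and 4.92% rose.

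Of 67 mitochondrial ribosomal protein genes 11 rose and none fell, where 4.92% of all genes rose and 2.72% fell. The median of the list was 0.29, and 60 of its differences were above 0, against 3212 of 5656 over all genes. RM haploid 2 weighed on this list: its summed level was 37626, 38265 and 41133 in RM diploids, against 34412, 28496 and 33785 in RM haploids, and 3 of 67 were called without RM haploid 2. MRPL27 shows it, at 9.02, 9.12 and 9.29 in RM diploids, against 8.81, 6.98 and 8.69 in RM haploids (adjusted p = 0.0424, and 0.345 without RM haploid 2).

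Nuclear respiratory chain genes, of which 20 of 30 rose and 1 fell in BY diploids, had 3 that rose and 1 that fell in RM diploids, and none was called without RM diploid 1 and RM haploid 2. The fall was that of HAP1, the heme-dependent activator (difference −1.79), on a probe set of the kind that can share sequence with relatives. Another of its probe sets, not of that kind, differed by −0.15 without passing (adjusted p = 0.645). For 3 of the 30 genes the RM difference was called below that of BY. Of 12 zinc-responsive targets of Zap1 2 rose in RM diploids and none fell, where 4.92% of all genes rose and 2.72% fell. ADH4, an alcohol dehydrogenase induced when zinc is scarce, was at 10.83, 10.73 and 10.77 in RM diploids, against 9.64, 9.60 and 9.46 in RM haploids (difference 1.21 ± 0.17 SE, adjusted p = 4.25e-05), and rose by 1.78 in BY diploids. IZH2, a membrane protein of zinc homeostasis, rose by 0.65. Phosphate starvation genes differed between the strains: 1 of 18 was called in RM diploids, a fall, while 9 of 18 rose in BY diploids, and the RM difference was called below the BY difference for 8. PHO84, the phosphate transporter, was at 6.84, 6.67 and 6.49 in RM diploids, against 6.85, 7.21 and 6.73 in RM haploids, and rose by 5.19 in BY diploids.

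Among the lists with 0 called genes in the limma fit of RM were the flocculins and their regulators, with 2 of 11 at an unadjusted p under 0.05, the histones with 2 of 5, hexose transporters with 2 of 15, sterol synthesis with 7 of 26, the proteasome with 4 of 32 and ribosome biogenesis factors with 2 of 65. Over all genes 1152 of 5656 had an unadjusted p under 0.05. FLO11, the flocculin of adhesion and filamentous growth, was at 7.44, 7.66 and 7.67 in RM diploids, against 7.25, 8.12 and 7.44 in RM haploids.

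**Figure D4:**
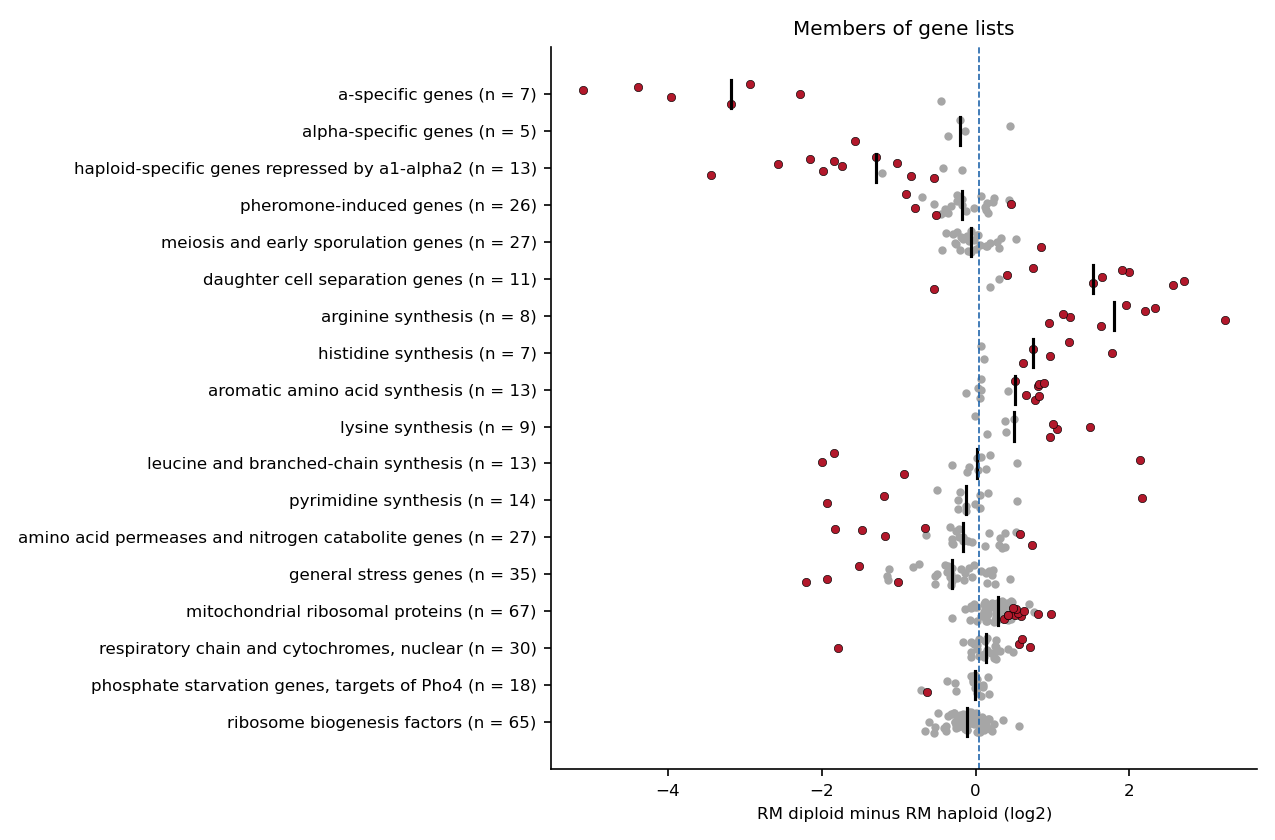
Difference between RM diploids and RM haploids (log2, x axis) for each measured member of 18 gene lists (rows), with called members in red, others in grey, list medians as black bars and the median of all genes, 0.05, as the dashed line. The a-specific and haploid-specific genes lie to the left, and the daughter cell separation and arginine genes to the right.

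Probe sets of repeated sequences fell widely. Ty elements are the retrotransposons of yeast, and the most common classes are known to be transcribed less in a/alpha cells than in haploids. Of 52 probe sets annotated to the Ty reading frames YJR027W or YCL019W, alone or with other genes, 48 fell in RM diploids and none rose, with a median difference of −1.30. The median level of the 52 was 9.16, 9.22 and 9.24 in RM diploids, against 10.32, 10.79 and 10.45 in RM haploids, which did not overlap. In BY diploids 50 of the 52 fell, with a median of −1.66, and the difference between the strains was called for 10. These probe sets cross-detect many copies, so the 52 are not independent and no copy can be named. Of 586 probe sets with the suffix f_at, which marks sets that can share sequence with a gene family, 244 fell (41.6%) and 4 rose, against 176 of the other 8688 that fell (2.03%) and 340 that rose (3.91%). Of the 168 probe sets without a gene that fell, 153 had this suffix.

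**Figure D5:**
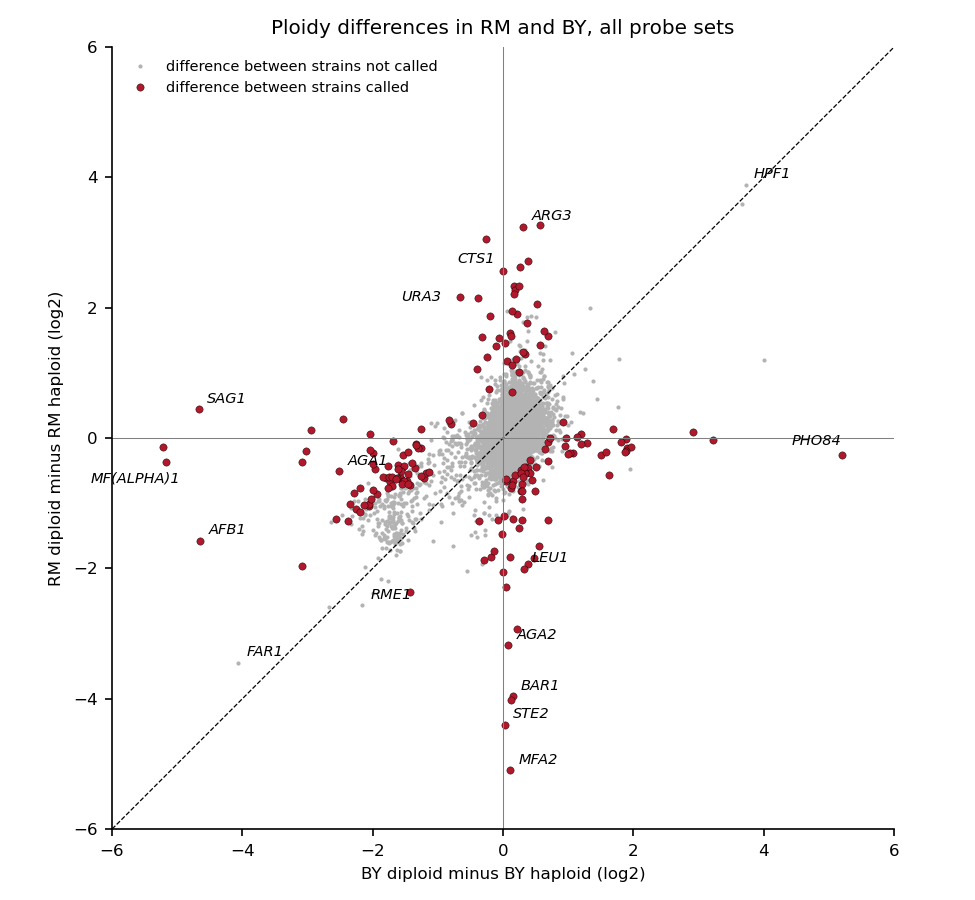
Ploidy difference in RM (y axis) against that in BY (x axis), both diploid minus haploid on the log2 scale, for 9274 probe sets, with those whose difference between the strains was called in red and the line of equality dashed. The a-specific genes other than ASG7 lie along the RM axis and the alpha-specific genes other than AFB1 along the BY axis. AFB1 fell in both strains, and FAR1 and HPF1 lie near the line.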

How the data were processed

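The deposited table holds log2 levels per probe set, as judged from its values (highest 14.67). The authors' software, scaling and detection calls are not given in the sources used here, so the values were used as deposited. Of 9335 probe sets, 60 controls and 1 at 0 on every array were left out. The platform annotation gave 6504 of the 9274 others 1 gene, 328 several and 2442 none, and the 1-gene sets were named through the RefSeq annotation of assembly R64. A gene was read from its probe set with the highest mean (5656 genes).

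R 4.3.3 and limma 3.58.1 were used to fit group means by lmFit with eBayes moderation (two-sided, Benjamini-Hochberg over 9274, threshold 0.05) on 24 arrays of 6 groups: the 4 RM and BY groups, BYxRM diploids and BY-RM mRNA mixtures. The 4 segregant and segregant hybrid arrays were left out as other genotypes. Strain by ploidy is the RM difference minus the BY difference. The number of arrays, 3 per group, limits the precision. No identical replicates were found. Shared replicate numbers were checked as pairs: deviations from group means correlated at 0.33, 0.03 and 0.21 for RM. Whether same-numbered arrays were handled together is not known, and the main fit did not use the numbers.

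Named genes are the 12 largest rises and falls without overlap, up to 4 called members of each list with at least 2, fixed mating and marker genes and, for strain by ploidy, the 8 largest each way. Other list members were named after their values were seen. The comparison and its lists were chosen with earlier results of these data known, and no list was tested. On simulated data, 78% of probe sets changed by 1 and 24% of those changed by 0.5 were recovered for RM, with 4.67% of calls false. For strain by ploidy 45% and 4% were recovered, with 7.55% of calls false. The simulated noise was independent and normal, with the same spread on every array and no array effects. These shares therefore need not hold for the real arrays.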

Additional observations from a re-analysis of the deposited data

Results flagged for a closer look

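For the genes below the ploidy difference of RM differed from that of BY in the interaction of the limma fit at an adjusted p of 0.05, and the values are the RM difference (diploid minus haploid) minus the BY difference, on the log2 scale. No cause was tested.

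Among mating genes the value was −5.20 for MFA2, −4.42 for STE2, −4.10 for BAR1, −3.26 for AGA2, −3.15 for STE6, −2.33 for MFA1 and −0.80 for ASG7, the last being lost in 12 of 24 alternative settings. It was 5.11 for SAG1, 5.07 for MF(ALPHA)2, 4.81 for MF(ALPHA)1, 3.08 for AFB1, 2.81 for STE3, 2.0 for AGA1, 1.86 for HO and −0.92 for NFG1. Among genes of daughter cell separation it was 2.56 for CTS1, 2.33 for DSE2, 1.70 for SCW11, 1.60 for DSE1, 1.03 for DSE4 and 0.96 for SUN4.

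For arginine genes it was 2.93 for ARG3, 2.09 for CPA1, 2.03 for ARG8, 1.83 for ORT1 and −1.18 for CAR2. Among the other amino acid and pyrimidine genes it was 2.83 for URA3, 2.53 for LEU2, 1.88 for STR3, 1.02 for STR2 and 0.77 for ASN1, against −2.32 for LEU1, −2.32 for OAC1, −2.31 for URA1, −1.22 for BAT1 and −1.21 for URA4. The values for STR2, ASN1 and URA4 were lost in 12, 6 and 6 of 24 alternative settings.

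Elsewhere it was −5.46 for PHO84, −2.22 for QDR2, −2.06 for MDH2, −1.94 for PUT4, −1.58 for ISU2, −1.46 for MEP2, 2.08 for ADH5 and 1.54 for ATG41. PUT4, ADH5 and ATG41 were lost in 11, 7 and 16 of 24 alternative settings, and QDR2 in 1, with all 28 arrays in the fit (adjusted p = 0.356). With all 28 arrays DSE2, SCW11, DSE4, DSE1 and SUN4 were lost too (adjusted p = 0.0772 to 0.299), and ARG8 without RM diploid 1 and RM haploid 2 (adjusted p = 0.0673).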

How the results depend on the processing

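The 764 probe sets called for RM became 1993 with array weights, 472 with 1 probe set per gene and 410 without RM diploid 1 and RM haploid 2, a setting chosen after seeing the data. Leaving out 1 array gave 543 (RM haploid 2) to 1172 (mixture 5, the array least like its group). The 181 of strain by ploidy became 738 with array weights, 285 with quantile normalization and 117 with 1 probe set per gene, and 121 (BY diploid 1 or 3) to 296 (mixture 5) with 1 array left out. Of the RM calls 45% were higher, but 65.7% with 1 probe set per gene, 33.5% without RM haploid 2 and 34.4% without both arrays. Of the strain by ploidy calls 58.6% were higher, but 71.8% with median centring, 47.2% with array weights, 47.3% without both arrays and 39.3% with 1 probe set per gene. With the replicate number as a block 830 and 201 were called. Same-numbered arrays correlated at 0.33, 0.03 and 0.21, and not every array correlated best with its own number. The labels do not say whether same-numbered arrays were handled together, so the block is not a known pairing of the design. Over the named genes and the alternatives, 2546 values stayed on their side of the threshold for RM, 117 lost and 23 gained a call, against 2532, 77 and 77 for strain by ploidy, and no called value changed direction. The cause of these shifts was not tested. Depth does not apply to arrays, and signal over background was not used here.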

Other observations

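The largest rise of a probe set without a gene name was that of 5476_at, at 7.31, 9.14 and 9.10 in RM diploids, against 4.94, 5.14 and 5.68 in RM haploids (difference 3.26 ± 0.33 SE, limma adjusted p = 2.57e-07), where RM diploid 1 lay below the other diploid arrays. It was at 9.71, 9.90 and 9.63 in BY diploids, against 9.57, 9.30 and 8.69 in BY haploids, and the strains differed by 2.70 ± 0.47 (SE, adjusted p = 0.00107). The probe set 10902_at was at 10.91, 10.63 and 10.81 in RM diploids, against 8.45, 8.27 and 8.63 in RM haploids.

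By the chromosome that the reference annotation gives each gene, median differences between RM diploids and RM haploids ran from −0.03 over 267 genes of chromosome V to 0.18 over 316 genes of chromosome XI. The chromosomes with the most rises were XII, where 46 of 488 genes rose and 13 fell, and XI, where 31 of 316 rose and 9 fell. Over all genes 4.92% rose and 2.72% fell. The same medians in BY ran from 0.09 to 0.20.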
